A study of Mus musculus with 32 samples.

Results

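The step from the 4-cell to the 8-cell stage of the mouse embryo was described from the gene levels of 8-cell and 4-cell embryos, in FPKM (fragments mapped to a gene, per kilobase of its transcript and scaled to the mapped fragments of the library). The genes examined were the 6003 of 24013 that reached 5 FPKM in at least 1 of these stages, and the measure was the 8-cell minus the 4-cell value of log2(FPKM + 1). Of the 32 samples of the series, 2 were 8-cell embryos and 2 were 4-cell embryos, but each stage was deposited as 1 column, so a stage has 1 value per gene, with no replicate error and no test between the stages. The stage embryos came from C57BL/6N females, superovulated with 5 IU of PMSG and, 44 to 48 h later, 5 IU of hCG, and mated to DBA/2N males. Their zona pellucida was removed, and polyadenylated RNA was made into libraries with a modified Smart-seq2 method, which amplifies full-length cDNA from few cells. A further pair of groups of the same cross was used for the spread between 8-cell libraries: 4 libraries of 8-cell embryos injected with siRNA against Nr5a2, a nuclear receptor gene, and 4 control libraries, all cultured in CZB medium with glutamine. What the control embryos received, the number of embryos in a library and their sex are not given in the sources used here, and neither is whether the 4 libraries of a group came from separate pools, so their spread, and p-values from it, may be technical.

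Around the 8-cell stage the blastomeres of the mouse embryo flatten against each other, a process called compaction that needs the adhesion protein E-cadherin and the cortical actin network, and they acquire an apical domain. Cells that later lie outside become trophectoderm, a transporting epithelium in which Tead4 with its coactivators Yap1 and Wwtr1 turns on Cdx2 and Gata3, and cells inside, where the Hippo pathway is active, become the inner cell mass (ICM). Transcripts that the egg stored, and those of the burst of embryonic transcription at the 2-cell stage, are by then being lost.

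A gene was counted as higher or lower at the 8-cell stage where the difference was 1 or more, a doubling of FPKM + 1. On this measure 414 genes were higher (6.9%) and 583 were lower (9.71%), while the median difference over all 6003 genes was -0.05. Dividing each stage by its median level moved that median by 0.11, to 0.05, and gave 492 genes higher and 481 lower. All 414 genes counted as higher and 481 of the 583 counted as lower kept their count after this scaling. Scaling each stage to the same total FPKM instead gave 373 genes higher and 797 lower, so the balance of higher to lower genes depends on the scaling. Differences of gene groups are therefore given below also relative to the median of all members. For scale, the SD of log2(FPKM + 1) among the 4 injected control libraries had a median of 0.30 and a 90th percentile of 0.60 over the same genes. The stage columns and the injected libraries come from separately processed tables, so their levels are set side by side below without a test. RNA of embryos was measured in bulk, so fewer cells of a type and less RNA per cell cannot be told apart. The genes closest to the 5 FPKM limit were Chic1, with 5.00 FPKM at the 8-cell stage, just inside, and Hspa1a, with 5.00 FPKM at the 4-cell stage, just below it. Closest to the limit of 1 were Ubxn2a (1.0) inside and Rras2 (0.998) outside, and at the other end Fbxw9 (-1.0) inside and Nf2 (-0.999) outside.

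**Figure D1:**
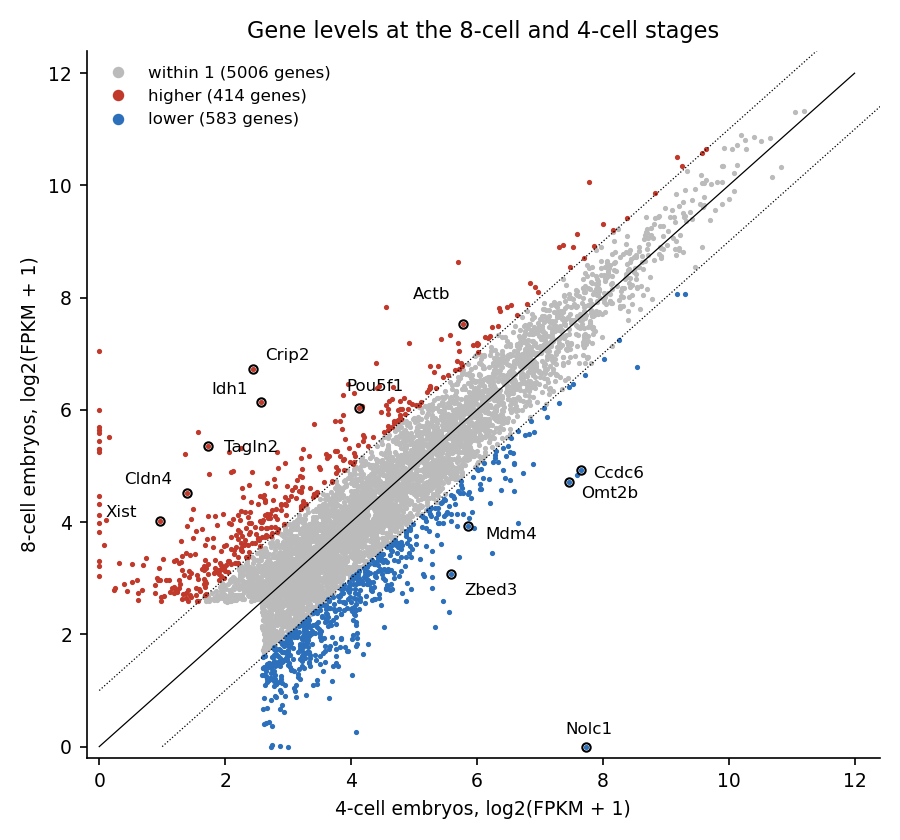
Level of each of the 6003 genes in 8-cell embryos (vertical) against 4-cell embryos (horizontal), both as log2(FPKM + 1). Dotted lines mark a difference of 1, red points are the 414 genes higher and blue points the 583 genes lower at the 8-cell stage, and circled genes are named in the text. Nolc1 lies on the horizontal axis because it is listed at 0 in the 8-cell column.

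Some genes of cell adhesion and of the actin cytoskeleton had more RNA at the 8-cell stage. Of the junction and polarity list, 20 of 42 genes reached 5 FPKM and were split into 5 higher, 1 lower and 14 neither, with a median difference of 0.19, 0.24 above that of all members. Cdh1, which encodes E-cadherin, had 23.8 FPKM at the 8-cell stage and 7.67 FPKM at the 4-cell stage. The injected control libraries held 22.4, 19.6, 22.1 and 21 FPKM, a mean of 21.3 ± 1.29 FPKM (SD, n = 4), so all 4 of these separate 8-cell libraries lay near the 8-cell column and above the 4-cell one. Cldn4, a claudin of tight junctions, was at 22.1 FPKM at the 8-cell stage and 1.63 FPKM at the 4-cell stage, and its injected control libraries held 137, 83.8, 89.8 and 36.6 FPKM. The nectin Pvrl2 (7.11 against 1.68 FPKM), occludin (Ocln, 14.1 against 4.57 FPKM) and Cldn7 (82.5 against 37.3 FPKM) completed the 5 genes counted as higher, with the 8-cell value first. The cytoplasmic partners of E-cadherin differed less: Ctnna1 (α-catenin) was at 23.8 FPKM at the 8-cell stage and 13.9 FPKM at the 4-cell stage, and Ctnnb1 (β-catenin) at 23.0 FPKM at the 8-cell stage and 23.1 FPKM at the 4-cell stage. Cldn6, another claudin, had 26.9 FPKM at the 8-cell stage and 29.0 FPKM at the 4-cell stage. The kinase gene Rock1, which acts on actomyosin, was the 1 gene of the list counted as lower, with 8.4 FPKM at the 8-cell stage and 20.5 FPKM at the 4-cell stage. Of the 20 genes, 13 had a positive and 7 a negative difference. Epcam (8.24 against 16.4 FPKM, 8-cell value first), Mark2 (9.12 against 16.6 FPKM) and Pard3 (2.91 against 5.52 FPKM) were lower without being counted.

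The actin list had 8 higher, 1 lower and 20 neither among 29 of 42 genes at 5 FPKM or more, and a median difference of 0.53, 0.58 above that of all members. β-actin (Actb) was at 185 FPKM at the 8-cell stage and 53.9 FPKM at the 4-cell stage, and the injected control libraries held 572, 775, 465 and 589 FPKM, above both stage columns. Among the tropomyosin genes, whose products bind along actin filaments, Tpm4 and Tpm1 were far apart between the stages and Tpm3 (189 against 144 FPKM, 8-cell value first) was not counted as higher. Tpm4 had 39.1 FPKM at the 8-cell stage and 3.74 FPKM at the 4-cell stage and 21.9, 26.5, 35.8 and 39.7 FPKM in the injected controls. Tpm1 had 19.1 FPKM at the 8-cell stage and 4.75 FPKM at the 4-cell stage. Thymosin Tmsb10, which binds actin monomers, was at 66.3 FPKM at the 8-cell stage and 17.1 FPKM at the 4-cell stage, and the capping protein gene Capzb was at 10.9 FPKM at the 8-cell stage and 2.97 FPKM at the 4-cell stage. Capza2 (113 against 52.6 FPKM) and the Arp2/3 subunit Arpc1b (15.9 against 5.56 FPKM) were also counted as higher and, being outside the naming rule, were named after their values were seen, whereas the Arp2/3 subunit Arpc3 was the 1 gene counted as lower, at 4.46 FPKM at the 8-cell stage and 12.3 FPKM at the 4-cell stage. γ-actin (Actg1) stood at 153 FPKM at the 8-cell stage and 42.3 FPKM at the 4-cell stage but at 5.66, 9.997, 7.66 and 5.19 FPKM in the injected controls. Actg1, Tpm4 and Arpc1b share at least 95% of at least 50% of their coding sequence with other transcripts, so reads of these genes could be divided differently between the tables.

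Further large differences of protein-coding genes were picked after their values were seen. Crip2, a small LIM-domain protein gene, was at 106 FPKM at the 8-cell stage and 4.41 FPKM at the 4-cell stage, and Tagln2, a transgelin that binds actin, at 40.0 FPKM at the 8-cell stage and 2.30 FPKM at the 4-cell stage. In the injected controls Crip2 held 103, 142, 126 and 132 FPKM and Tagln2 held 93.9, 94.5, 40.6 and 137 FPKM, so for Crip2 and Tagln2 every one of these libraries was above the 4-cell column. The lipoprotein receptor chaperone gene Lrpap1 reached 228 FPKM at the 8-cell stage and 22.5 FPKM at the 4-cell stage, with 194, 225, 202 and 285 FPKM in the controls. Further examples were Vnn1, a pantetheinase (47.5 against 1.96 FPKM), the tetraspanin Tspan1 (11 against 0.0569 FPKM) and Perp, a desmosome-associated p53 target (8.63 against 0.237 FPKM), again with the 8-cell value first. Idh1, the cytosolic isocitrate dehydrogenase, was at 69.2 FPKM at the 8-cell stage and 4.94 FPKM at the 4-cell stage, but the injected control libraries held 21.9, 22.5, 19.1 and 14.4 FPKM, below the 8-cell column in all 4. Cthrc1, a secreted protein gene, was an 8-cell peak in the stage series, with 0.933 FPKM at the 2-cell, 1.56 at the 4-cell, 36.0 at the 8-cell stage and 1.2 in the ICM.

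**Figure D2:**
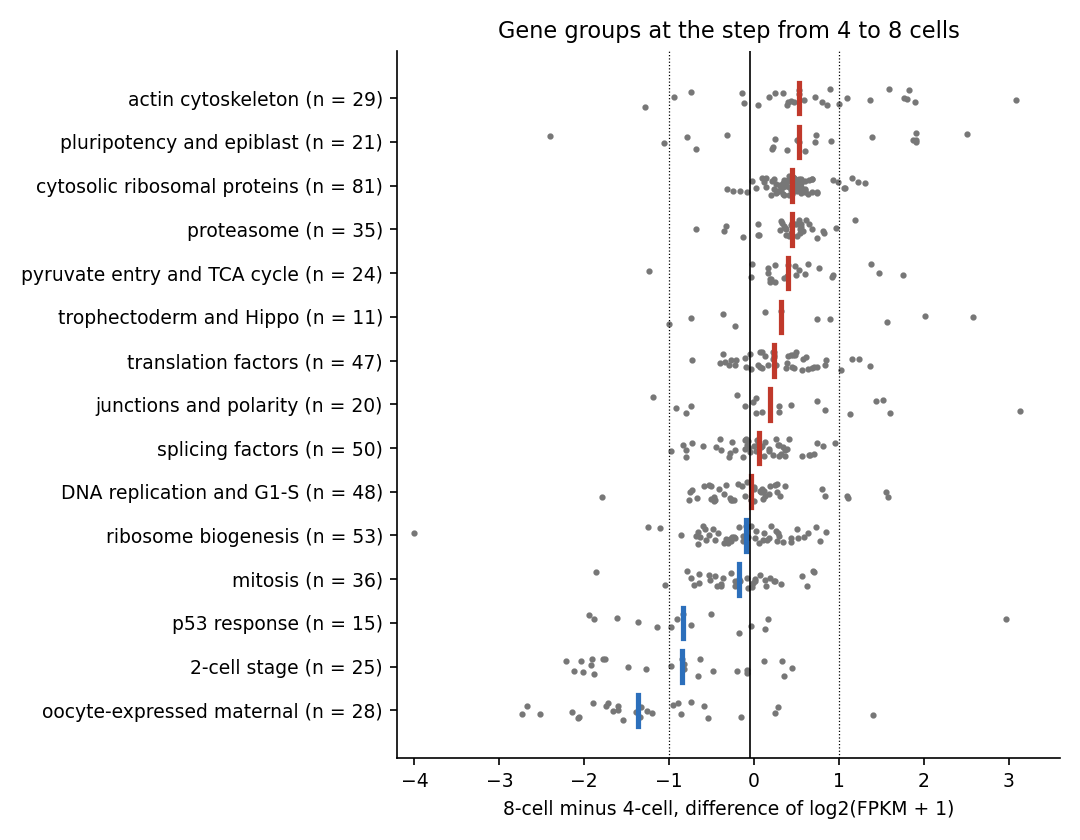
Difference of log2(FPKM + 1), 8-cell minus 4-cell, for the genes of 15 lists that reached 5 FPKM in either stage. Points are genes, thick bars are list medians (red above, blue below the median of all members, the solid line), dotted lines mark differences of 1 and -1, and Nolc1 of the ribosome biogenesis list, at -7.74, is drawn at -4.

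Markers of the trophectoderm programme were mostly low at both stages. Of that list 11 of 26 genes reached 5 FPKM, with 3 higher, 0 lower and 8 neither, and with 7 positive and 4 negative differences. The Hippo pathway gene Nf2 (19.5 against 40.0 FPKM, 8-cell value first) was just short of being counted as lower, at -0.999. Amotl2, an angiomotin family member of the Hippo pathway, was at 6.12 FPKM at the 8-cell stage and 0.190 FPKM at the 4-cell stage, and the injected control libraries held 7.93, 9.11, 14.3 and 12.8 FPKM. The endocytic adaptor Dab2 had 6.83 against 0.948 FPKM and the receptor Fgfr2 had 6.07 against 1.40 FPKM, 8-cell value first. Tead4 was at 42.6 FPKM at the 8-cell stage and 33.9 FPKM at the 4-cell stage. Its coactivators went opposite ways, neither by enough to be counted. Yap1 was at 6.24 FPKM at the 8-cell stage and 11.1 FPKM at the 4-cell stage, and Wwtr1 at 17.3 and 9.91 FPKM. Hand1 (102 against 119 FPKM) and Tfap2c (46.3 against 60.1 FPKM, 8-cell value first) were abundant at both stages. Cdx2 had 0.601 FPKM at the 8-cell stage and 0 FPKM at the 4-cell stage, and Gata3 had 4.02 FPKM at the 8-cell stage and 0.770 FPKM at the 4-cell stage, both under the 5 FPKM limit. Klf5 was close in the stage columns, with 28.9 FPKM at the 8-cell stage and 26.4 FPKM at the 4-cell stage, but its injected control libraries ranged widely, at 211, 112, 55.8 and 33.3 FPKM. The keratins of simple epithelia were near their onset: Krt18 had 9.89 FPKM at the 8-cell stage and 1.59 FPKM at the 4-cell stage and Krt8 had 1.33 FPKM at the 8-cell stage and 0.659 FPKM at the 4-cell stage, against 86.1 FPKM of Krt18 and 62.7 FPKM of Krt8 in the ICM column. In the injected controls Krt18 held 5.26, 19.4, 42.5 and 29.4 FPKM.

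Several pluripotency genes were higher at the 8-cell stage, whereas Nanog and Sox2 were not counted as higher. The list held 6 higher, 2 lower and 13 neither among 21 of 28 genes at 5 FPKM or more, with a median difference of 0.53, 0.58 above that of all members. Pou5f1 (Oct4), the central pluripotency factor, was at 64.4 FPKM at the 8-cell stage and 16.5 FPKM at the 4-cell stage, with 191, 172, 88.8 and 135 FPKM in the injected controls, all above both columns. Tfcp2l1 (6.48 against 0.318 FPKM), Utf1 (12.2 against 2.51 FPKM), Sall1 (6.83 against 1.09 FPKM) and Tbx3 (21.4 against 5.11 FPKM) were higher at the 8-cell stage, as was Esrrb (10.8 against 3.5 FPKM), which was named after its values were seen. Esrrb held 3.02, 2.22, 2.96 and 4.30 FPKM in the injected controls, where 3 of 4 libraries were below the 4-cell column. Nanog had 6.59 FPKM at the 8-cell stage and 4.27 FPKM at the 4-cell stage, a difference of 0.53, and Sox2 was near 0 at 0.110 FPKM at the 8-cell stage and 0.179 FPKM at the 4-cell stage. The ICM column held 288 FPKM of Nanog and 8.03 FPKM of Sox2. Tcl1, a coactivator of Akt, was lower at 3.38 FPKM at the 8-cell stage and 22.1 FPKM at the 4-cell stage, and so was Fgf4 at 2.93 FPKM at the 8-cell stage and 7.17 FPKM at the 4-cell stage, which was named after its values were seen. Of the primitive endoderm list, 2 of 19 genes reached 5 FPKM. Gata6 was higher, at 17 FPKM at the 8-cell stage and 4.27 FPKM at the 4-cell stage, with 22.7, 21.3, 20.1 and 25.1 FPKM in the injected controls, and Gata4 was lower, at 8.04 FPKM at the 8-cell stage and 17.7 FPKM at the 4-cell stage, with 14.3, 15.2, 8.04 and 1.78 FPKM.

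Promoters were searched on both strands, from 250 bases before to 50 bases after each start in RefSeq (GRCm38.p6), for AAGGTCA (the core bound by Nr5a2-type receptors), GGAATG (TEAD), TGCAAAT (POU octamer), TGANTCA (AP-1) and CACGTG (E-box). GGAATG was in the promoters of 16.1% of the 316 higher genes and 16.7% of the 474 lower genes with a promoter entry, against 13.2% of the 4858 members and 16.6% of the 27025 genes with an entry. AAGGTCA was in 5.7%, 4.22%, 4.06% and 5.38% of the same groups, and TGANTCA in 6.65%, 6.54%, 5.21% and 8.97%. TGCAAAT was in 4.11%, 4.64%, 2.88% and 4.56%, and CACGTG in 11.1%, 12%, 13.5% and 8.09%. No motif contains another. Between higher and lower genes these shares were close, and the differences in share were not tested. Of the genes described above, the promoters of Amotl2 and Tagln2 held GGAATG and that of Cldn4 held TGANTCA 2 times, and these are shown to place the matches. The files were made on build mm9, of which no coordinate is used here. The 250 bases before each start follow, 5′ to 3′ on the gene's strand, in lower case with the matches in capitals, on either strand (CATTCC is GGAATG on the other strand): Amotl2 at chr9:102717554-102717803 (plus strand), Tagln2 at chr1:172499996-172500245 (plus strand) and Cldn4 at chr5:134946935-134947184 (minus strand).
Amotl2: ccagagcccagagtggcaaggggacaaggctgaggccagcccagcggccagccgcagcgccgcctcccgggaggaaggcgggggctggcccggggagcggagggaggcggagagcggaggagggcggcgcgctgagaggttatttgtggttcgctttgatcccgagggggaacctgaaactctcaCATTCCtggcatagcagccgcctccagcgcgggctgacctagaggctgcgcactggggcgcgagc
Tagln2: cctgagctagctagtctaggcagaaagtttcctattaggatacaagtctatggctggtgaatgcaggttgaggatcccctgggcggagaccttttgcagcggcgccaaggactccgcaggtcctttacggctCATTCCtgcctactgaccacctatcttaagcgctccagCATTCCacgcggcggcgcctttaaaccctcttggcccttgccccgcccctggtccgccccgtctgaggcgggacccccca
Cldn4: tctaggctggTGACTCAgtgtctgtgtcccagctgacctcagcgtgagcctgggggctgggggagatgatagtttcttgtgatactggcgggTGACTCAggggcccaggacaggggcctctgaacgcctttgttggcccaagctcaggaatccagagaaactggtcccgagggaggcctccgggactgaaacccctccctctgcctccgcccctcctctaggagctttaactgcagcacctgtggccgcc
The match of Amotl2 began 65 bases before the start, those of Tagln2 118 and 80 bases before it, and those of Cldn4 240 and 158 bases before it. A match describes the letters only.

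Ribosomal protein, proteasome and translation factor genes had median differences above that of all members, but their shares counted as higher were below the 6.9% of all members for the first 2 lists and 4 of 47 for translation factors. Of 81 cytosolic ribosomal protein genes, all at 5 FPKM or more, 76 had a positive difference, but 5 higher, 0 lower and 76 neither, with a median difference of 0.45, 0.50 above that of all members. Of the 5 counted as higher, Rps4x (633 against 257 FPKM), Rpl10, Rpl36a and Rpl39 lie on the X chromosome and only Rpl26 on an autosome. Nearly all genes of this list, 76 of 81, have near-identical copies in the genome. Proteasome genes gave 1 higher, 0 lower and 34 neither of 35, with a median difference of 0.44. The 1 higher gene was the ATPase subunit Psmc6, at 116 FPKM at the 8-cell stage and 50.6 FPKM at the 4-cell stage. Translation factors gave 4 higher, 0 lower and 43 neither of 47 and a median of 0.24. Among them the initiation inhibitor Eif4ebp1 was at 101 FPKM at the 8-cell stage and 38.7 FPKM at the 4-cell stage and the elongation factor Eef1g at 178 FPKM at the 8-cell stage and 74.8 FPKM at the 4-cell stage. Aminoacyl-tRNA synthetase genes, with a median of 0.03 and 1 higher, 0 lower and 20 neither, and splicing factor genes, with a median of 0.05 and 0 higher, 0 lower and 50 neither, lay close to the median of all members. Ribosome biogenesis genes gave 0 higher, 3 lower and 50 neither of 53 and a median of -0.10.

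Genes of the mitochondrial oxidation of pyruvate, the main fuel of the cleaving embryo, were mostly a little higher. The list of pyruvate entry and the tricarboxylic acid cycle gave 3 higher, 1 lower and 20 neither of 24, with 21 positive differences and a median of 0.40. Pdha1, a subunit of pyruvate dehydrogenase, was at 159.9 FPKM at the 8-cell stage and 46.6 FPKM at the 4-cell stage, the isocitrate dehydrogenase subunit Idh3g at 226 FPKM at the 8-cell stage and 80.9 FPKM at the 4-cell stage and the succinyl-CoA ligase subunit Sucla2 at 73.1 FPKM at the 8-cell stage and 27.6 FPKM at the 4-cell stage. Pdha1 and Idh3g are X-linked. The malic enzyme gene Me2 was lower, at 2.21 FPKM at the 8-cell stage and 6.56 FPKM at the 4-cell stage. Respiratory chain genes gave 4 higher, 1 lower and 67 neither of 72 and a median of 0.21. In the glycolysis list, with 2 higher, 2 lower and 6 neither of 10, hexokinase Hk1 (9.38 against 4.15 FPKM) and phosphoglycerate mutase Pgam1 (205 against 98.8 FPKM) were higher, whereas the lactate dehydrogenase subunit Ldhb (16.7 against 40.7 FPKM) and pyruvate kinase Pkm (6.02 against 14.9 FPKM) were lower, with the 8-cell value first. The glucose transporter Slc2a3 had 14.0 FPKM at the 8-cell stage and 8.65 FPKM at the 4-cell stage, and Slc2a1 had 0.794 FPKM at the 8-cell stage and 0.617 FPKM at the 4-cell stage.

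Smaller groups gave few counts, to be set beside the 6.9% higher and 9.71% lower of all members. Several of their shares were near these, so the genes named below are single examples rather than results about a group. The aquaporin Aqp3, a water and glycerol channel, was higher (8.70 against 1.42 FPKM, 8-cell value first). Cholesterol synthesis had 1 higher, 0 lower and 12 neither of 13, led by Msmo1 (49.3 against 13.4 FPKM). Lysosome genes had 4 higher, 1 lower and 36 neither of 41, with the regulator Tfeb at 19 FPKM at the 8-cell stage and 6.75 FPKM at the 4-cell stage. Heat shock and chaperone genes had 5 higher, 3 lower and 22 neither of 30. Among those counted, the cytosolic Hsp90ab1 (1301 against 615 FPKM) and Hspa8 (1533 against 762 FPKM, named after its values were seen) were higher. The endoplasmic reticulum chaperones Hspa5 (119 against 258 FPKM) and Hsp90b1 (11.3 against 24.5 FPKM) were lower. So was the heat shock transcription factor gene Hsf1 (13.3 against 28.3 FPKM). The differences of Hspa8 (1.01), Hsp90ab1 (1.08), Hsp90b1 (-1.05) and Hsf1 (-1.04) were close to the limit of 1 in size. Cytosolic members did not all rise: St13 (29.3 against 47.4 FPKM) and Hsph1 (16.7 against 26.0 FPKM) had smaller 8-cell values, though not counted as lower. Mitosis genes had 0 higher, 2 lower and 34 neither of 36 and a median of -0.17, the lower ones being the kinetochore gene Spc25 (31.7 against 118 FPKM) and the chromosomal passenger gene Incenp (11.2 against 24.4 FPKM). DNA replication genes had 4 higher, 1 lower and 43 neither of 48, with thymidylate synthase (Tyms, 70.5 against 23.4 FPKM) higher and the cell cycle regulator E2f1 (1.60 against 8.00 FPKM) lower. Amino acid transporters had 1 higher, 2 lower and 2 neither of 5, metallothionein and zinc genes 0 higher, 1 lower and 7 neither of 8, and DNA methylation genes 1 higher, 1 lower and 8 neither of 10, where Dnmt3l, a cofactor of DNA methyltransferases, was at 19.1 FPKM at the 8-cell stage and 8.41 FPKM at the 4-cell stage and the imprint guard Zfp57 at 16.1 FPKM at the 8-cell stage and 34.4 FPKM at the 4-cell stage. Of the imprinted genes, 2 higher, 0 lower and 6 neither of 8 were counted, and the higher pair were Xist and Gnas (8.94 against 1.29 FPKM). The housekeeping list was not level either, with 3 higher, 0 lower and 10 neither of 13, the higher ones being Actb, Hprt (1448 against 575 FPKM) and Ywhaz (81.7 against 36.9 FPKM).

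Maternal transcripts made up the clearest group with less RNA at the 8-cell stage. Of the oocyte-expressed list, 28 of 46 genes reached 5 FPKM, and 18 were counted as lower, 1 as higher and 9 as neither, with a median difference of -1.36, -1.31 relative to all members. Omt2b, an oocyte transcript, held 4779 FPKM in the MII oocyte, 3182 at the 2-cell, 175 at the 4-cell and 25.4 at the 8-cell stage. The injected control libraries held 1.43, 0.975, 4.39 and 4.90 FPKM, all below the 8-cell column. Zbed3, a maternal gene whose product belongs to the subcortical maternal complex, held 8502 FPKM in the MII oocyte, 394 at the 2-cell, 47.3 at the 4-cell and 7.43 at the 8-cell stage. Also lower were Omt2a (14.8 against 99.9 FPKM), the deadenylation adaptor Btg4 (5.68 against 27.0 FPKM), Oosp1 (2.41 against 14.0 FPKM) and the egg coat protein gene Zp1 (0.862 against 6.76 FPKM). Khdc3, another subcortical maternal complex gene, was the exception counted as higher, at 109 FPKM at the 8-cell stage and 40.6 FPKM at the 4-cell stage, after 4.37 FPKM at the 2-cell stage and before 611 FPKM in the ICM. Dppa3, which is both maternal and embryonic, stayed among the most abundant transcripts, at 2527 FPKM at the 8-cell stage and 2129 FPKM at the 4-cell stage. Gdf9, an oocyte growth factor, had 11.2 FPKM at the 8-cell stage and 19.4 FPKM at the 4-cell stage.

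Genes of the 2-cell burst were lower as well. Of that list, 25 of 44 genes in the table reached 5 FPKM and gave 0 higher, 11 lower and 14 neither, with a median difference of -0.85. Zscan4f was at 1.53 FPKM at the 8-cell stage and 10.7 FPKM at the 4-cell stage, Usp17lb at 7.21 FPKM at the 8-cell stage and 34.7 FPKM at the 4-cell stage and Tdpoz3 at 0.776 FPKM at the 8-cell stage and 5.65 FPKM at the 4-cell stage. In the injected control libraries Zscan4c was at 0 in all 4, while the stage columns held 0.512 FPKM at the 8-cell stage and 4.14 FPKM at the 4-cell stage. Zscan4c, Zscan4f and Tdpoz3 belong to families of near-identical genes, and genes with such copies tended to read lower in the injected table than in the stage table, so these 0 values are no measure of absence. Among the largest differences outside the lists were Trim61 (5.06 against 43.2 FPKM), Oog3 (9.92 against 75 FPKM) and Ccdc6 (29.6 against 199 FPKM), all abundant in the oocyte column (2191, 1377 and 240.1 FPKM). Tnfaip8l2, by contrast, was an embryonic transcript, with 0 FPKM in the oocyte, 28.9 at the 2-cell, 39.3 at the 4-cell and 3.37 at the 8-cell stage.

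The p53 response list also leaned lower, with 1 higher, 5 lower and 9 neither of 15 and a median difference of -0.84, -0.78 relative to all members. The lower members included Mdm4 and Mdm2, the main negative regulators of p53. Mdm4 was at 14.2 FPKM at the 8-cell stage and 57.2 FPKM at the 4-cell stage, with 5.21, 6.45, 5.19 and 7.61 FPKM in the injected controls. Mdm2 was at 21.5 FPKM at the 8-cell stage and 56.9 FPKM at the 4-cell stage, with 13.2, 11.6, 18.7 and 10.3 FPKM in the injected controls. Ddit4, an inhibitor of mTORC1 (2.26 against 11.1 FPKM), the ribonucleotide reductase subunit Rrm2b (2.09 against 8.47 FPKM) and the kinase Plk2 (4.49 against 11.2 FPKM) were lower too. Trp53 itself was at 60.4 FPKM at the 8-cell stage and 62.1 FPKM at the 4-cell stage, and its inhibitor of the cell cycle, Cdkn1a, at 23.3 FPKM at the 8-cell stage and 26.6 FPKM at the 4-cell stage. Mdm4 was also abundant before, with 238 FPKM at the 2-cell stage.

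Across the stage series, the 414 higher genes had a median of 2.99 FPKM at the 2-cell, 4.98 at the 4-cell, 18.7 at the 8-cell stage and 23.8 in the ICM. The 583 lower genes had medians of 18.4 FPKM at the 2-cell, 14.3 at the 4-cell, 4.47 at the 8-cell stage and 3.74 in the ICM. The 4-cell and 8-cell values chose the genes, so only the medians at the other stages add to this description. The choice also affects the shares of highest levels below. A higher gene cannot be highest at the 4-cell stage, nor a lower gene at the 8-cell stage, where 19.3% and 15.5% of all members were highest. Of the higher genes, 153 (37%) had their highest level in the ICM, 50 (12.1%) in mouse embryonic stem cells (mESC) and 37 (8.94%) in the MII oocyte, against 18%, 10.1% and 18.5% of all members, and 155 were highest at the 8-cell stage. Of the lower genes, 172 (29.5%) were highest in the MII oocyte and 115 (19.7%) at the 2-cell stage, against 18.5% and 9.18% of all members, and 184 at the 4-cell stage. The lower genes thus held both stored and embryonic transcripts.

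**Figure D3:**
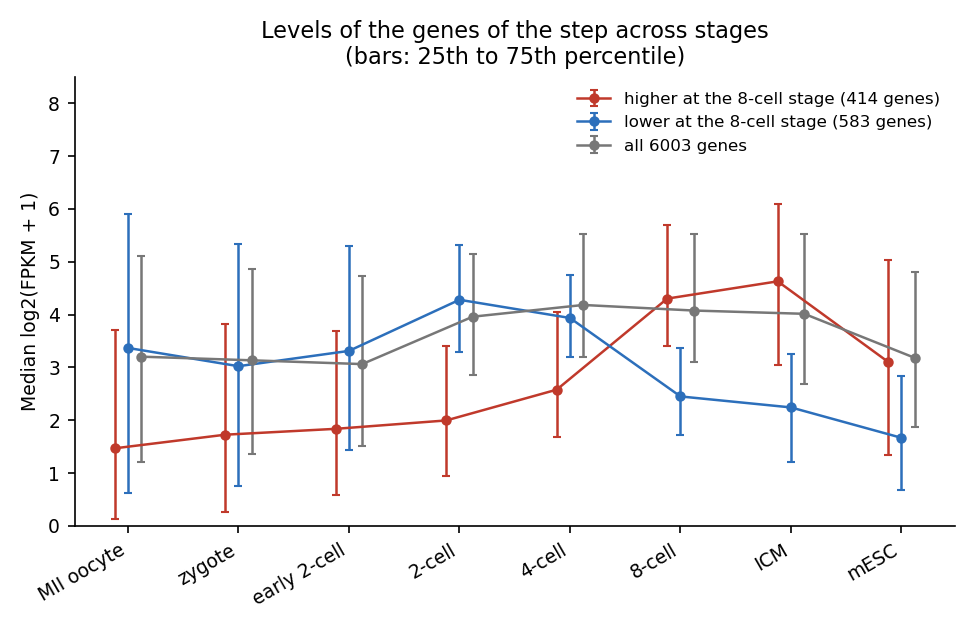
Median level, as log2(FPKM + 1), of the 414 genes higher at the 8-cell stage (red), the 583 genes lower (blue) and all 6003 genes (grey) in the 8 stage columns. Bars run from the 25th to the 75th percentile over genes. The red line crosses the blue line between the 4-cell and the 8-cell column, which the choice of genes fixes.

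X-linked genes stood apart from the autosomes. Of 185 X-linked genes among the members, by RefSeq chromosome (GRCm38.p6), 54 were counted as higher (29.2%) and 2 as lower, against 360 higher (6.21%) and 579 lower of 5797 autosomal genes. The median difference was 0.59 for the X chromosome and between -0.17 and 0.09 for the 19 autosomes. X-linked genes were thus 54 of the 414 higher genes (13%) and 3.08% of all members. Sat1, which breaks down polyamines, was at 1068 FPKM at the 8-cell stage and 218 FPKM at the 4-cell stage, Hprt, a purine salvage enzyme, at 1448 FPKM at the 8-cell stage and 575 FPKM at the 4-cell stage, and Bex1 at 77.6 FPKM at the 8-cell stage and 15.6 FPKM at the 4-cell stage. Sat1 and Bex1 were named after their values were seen. Xist, the RNA that coats the inactive X chromosome and is made where 2 X chromosomes are present, was at 15.2 FPKM at the 8-cell stage and 0.949 FPKM at the 4-cell stage. Tsix, which is transcribed antisense to Xist, was at 8.11 FPKM at the 8-cell stage, 0.931 FPKM at the 4-cell stage and 38.8 FPKM in the ICM. How reads were divided between these overlapping genes was not tested. Genes of the Y chromosome went the other way. Eif2s3y was at 2.19 FPKM at the 8-cell and 6.98 FPKM at the 4-cell stage, and Ddx3y at 1.26 and 2.91 FPKM at the same stages. The ICM column held 19.8 FPKM of Xist and 0.146 FPKM of Eif2s3y.

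The injected 8-cell libraries differed from the 8-cell column in these genes. Xist was at 0.0121 FPKM or less in all 8 libraries. Eif2s3y held 20.8, 28.4, 14.7 and 28.8 FPKM in the Nr5a2 knockdown libraries and 12.6, 19.3, 15.7 and 13.2 FPKM in the controls. The median log2(FPKM + 1) of X-linked minus that of autosomal members was -0.93, -0.82, -0.87 and -0.92 in the knockdown libraries and -1.10, -1.03, -0.99 and -1.11 in the controls. In the stage columns it was 0.10 at the 2-cell, -0.53 at the 4-cell and 0.05 at the 8-cell stage and 0.37 in the ICM. The 4-cell column thus lay below the columns before and after it. The excess of X-linked genes among the higher genes was thus measured in columns whose Xist and Y-linked levels differed, and the sex ratio of the embryos cannot be told apart from the stage in it. Without X- and Y-linked genes, 360 genes were higher and 580 lower.

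**Figure D4:**
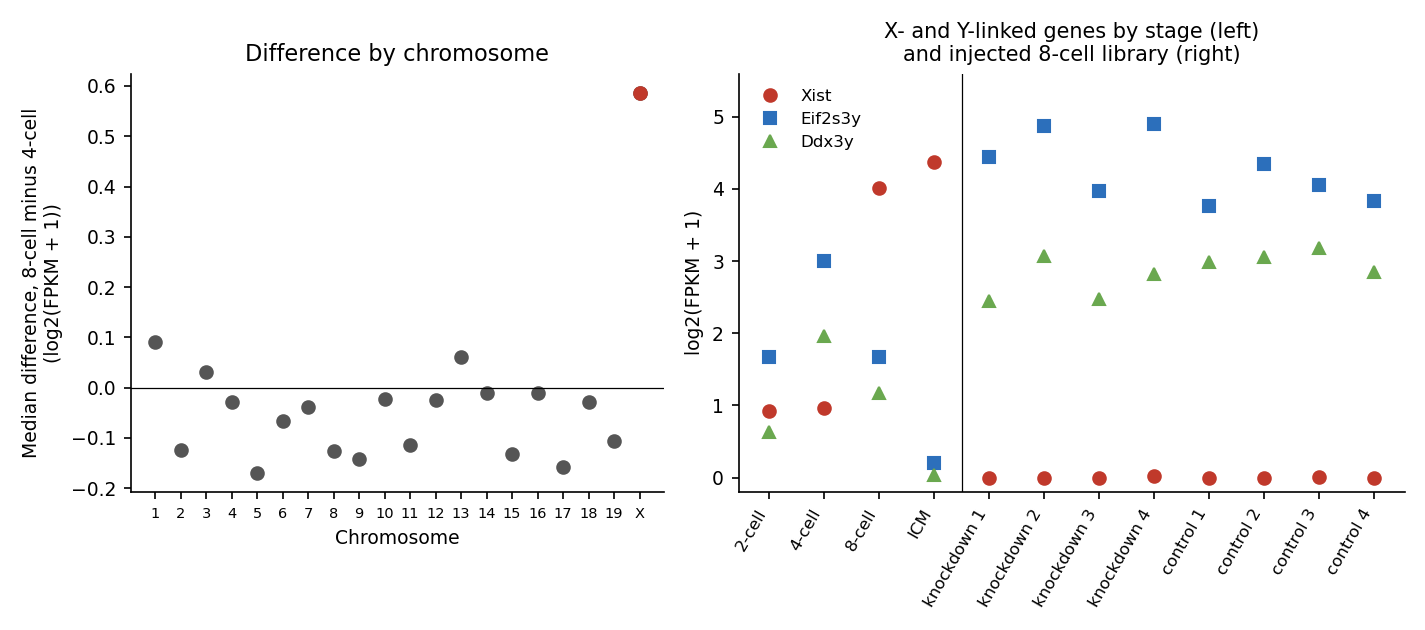
Left, median difference of log2(FPKM + 1), 8-cell minus 4-cell, of the members on each chromosome, with the X chromosome in red at 0.59. Right, levels of Xist, Eif2s3y and Ddx3y as log2(FPKM + 1) in 4 stage columns and in the 8 injected 8-cell libraries, in which Xist was at or near 0.

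Some of the largest differences rest on values of 0 or on short RNAs. Of the 35 members grouped as small RNA genes by their type in RefSeq, 20 were higher and 4 lower, and 13 of the 35 were listed at 0 at the 4-cell stage. The 35 include 1 antisense RNA gene, Tsix, which is long and was counted as higher (8.11 against 0.931 FPKM, 8-cell value first). Snora41, a small nucleolar RNA gene, had the largest positive difference, being listed at 131 FPKM at the 8-cell and at 0 at the 4-cell stage. Next were Mir6236 (63.1 FPKM), Snord22 (50.7 FPKM), Mir6516 (48.9 FPKM), Snora15 (46.9 FPKM), Snora64 (42.4 FPKM), Scarna8 and Snora65 (38.6 FPKM each), Snora31 (37.1 FPKM), Mir8094 (21.2 FPKM) and Mir8098 (16.4 FPKM), all listed at or near 0 at the 4-cell stage. Polyadenylated RNA libraries are not made for such short RNAs, and FPKM divides by a short length. In all, 16 members were listed at 0 in 1 of the stages, 15 of them at the 4-cell stage. The largest negative difference belonged to Nolc1, a nucleolar protein gene used in every cell, listed at 0 at the 8-cell stage and at 213 FPKM at the 4-cell stage, whereas the injected control libraries held 182, 147, 130.2 and 214 FPKM. It was also listed at 0 at the 2-cell stage. Ndufs5, a subunit of respiratory complex I, was near 0 at the 4-cell stage and at 7.22 FPKM at the 8-cell stage, while the injected controls held 59.3, 69.9, 51.8 and 57.9 FPKM. Rhox9, an X-linked homeobox gene, was listed at 19.1 FPKM at the 8-cell stage and at 0 at the 4-cell stage and in the 4 injected controls. Without the 35 genes of that group 394 genes were higher and 579 lower.

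Stage markers were mixed: of genes taken as marks of the 8-cell stage and later, Krt18, Cldn4 and Pou5f1 had larger values in the 8-cell column than in the 4-cell column, while Cldn6 did not and Krt8 was low in both. The defining genes of granulosa cells (Amh, Foxl2, Fshr, Inha, Cyp19a1, Has2 and Ptx3) were at 0.0696 FPKM or less in both columns. Of the whole list of 19, 13 genes were at 0 at the 8-cell stage and 11 at the 4-cell stage, and its summed level was 21.8 FPKM and 46.8 FPKM, of which Amhr2 made up 18.5 FPKM and 46.1 FPKM. Sperm markers summed to 5.61 FPKM at the 8-cell and 9.14 FPKM at the 4-cell stage. Blood markers summed to 6.80 FPKM and 11.8 FPKM at the same stages, and the α-globin gene Hba-a2 held 6.30 FPKM of the 4-cell sum. The part of such cells in the differences was not tested.

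The Nr5a2 knockdown asked which genes of the step respond to the loss of this receptor, in libraries that the step did not use. Nr5a2 itself was at 38.4 FPKM at the 8-cell stage and 48.1 FPKM at the 4-cell stage. It held 3.76, 4.25, 6.72 and 6.6 FPKM in the knockdown libraries and 23.6, 20.3, 13.1 and 25.2 FPKM in the controls (log2 difference -1.76, SE 0.27, adjusted p = 0.0143 by limma with Benjamini-Hochberg adjustment over 8170 genes), with no overlap between the groups and an adjusted p of 0.0611 without control library 1 and 0.0845 with no limit on low values. Of all tested genes, 128 were higher (1.57%) and 57 lower (0.698%) in the knockdown at an adjusted p below 0.05. Of the 378 tested genes that were higher at the 8-cell stage, 13 fell (3.44%) and 7 rose (1.85%) in the knockdown, and of the 476 tested genes that were lower, 1 fell and 17 rose (3.57%). After median scaling the split over all tested genes was 67 higher and 81 lower, 18 of the higher genes of the step fell and 4 rose, and 2 of the lower genes fell and 9 rose. Leaving out 1 library at a time moved the 4 unscaled counts of genes of the step to between 4 and 24, 0 and 6, 0 and 3, and 4 and 24, and each of the 8 libraries moved at least 1 of them by over 1.5 times. The highest counts of all tested genes, 177 higher and 108 lower, came without knockdown library 3. The summed level of the granulosa list, most of it Amhr2 in the stage columns, was 9.60 to 18.2 FPKM in the knockdown and 20.4 to 42.2 FPKM in the control libraries, while its defining genes named above were at 0.126 FPKM or less in all 8 libraries.

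Genes higher at the step and lower in the knockdown included metabolic and transport genes. Fdx1, the ferredoxin of mitochondrial steroid synthesis, held 5.29, 6.53, 11.6 and 3.86 FPKM in the knockdown and 64.5, 46.9, 73.2 and 39.5 FPKM in the control libraries (log2 difference -2.92, SE 0.31, adjusted p = 0.00182), and its stage columns were 35.2 FPKM at the 8-cell stage and 9.02 FPKM at the 4-cell stage. The knockdown libraries of Fdx1 lay on both sides of the 4-cell column, and the groups did not overlap. Tdh, the threonine dehydrogenase that feeds one-carbon metabolism in mouse stem cells, held 0.430, 0.996, 6.04 and 2.57 FPKM in the knockdown and 18.8, 24.8, 28.2 and 78.7 FPKM in the controls (log2 difference -3.50, SE 0.52, adjusted p = 0.0138). Tdh has a near-identical copy. Slc12a7, a potassium chloride cotransporter, held 2.82, 5.09, 7.81 and 4.97 FPKM and 26.0, 21.6, 22.2 and 17.4 FPKM (log2 difference -1.93, SE 0.27, adjusted p = 0.00942) in knockdown and control libraries. Steap3, a ferrireductase, held 5.53, 3.69, 4.82 and 6.76 FPKM and 25.2, 19.7, 13.5 and 23.1 FPKM (log2 difference -1.77, SE 0.26, adjusted p = 0.0119) in the same order. In Tdh, Slc12a7 and Steap3, too, every knockdown library was below every control. As these genes and Fdx1 were picked for the smallest p in the same libraries, such separation follows largely from the choice. The share of all tested genes without overlap was not counted. Fdx1, Tdh, Slc12a7 and Steap3 kept their call without any 1 of the 8 libraries. With no limit on low values Fdx1 kept it, and Tdh (adjusted p = 0.0937), Slc12a7 and Steap3 (0.0659 each) lost it.

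Other calls depended on single libraries. Fstl3, a follistatin-like inhibitor of activin, held 16.1, 10.7, 20.3 and 9.13 FPKM in the knockdown and 94.8, 81.3, 45.8 and 33.9 FPKM in the controls (log2 difference -2.06, SE 0.34, adjusted p = 0.0166), and lost its call without control library 1 (adjusted p = 0.0611), control library 2 (0.0539) or knockdown library 2 (0.0532). Crip2, among the largest differences of the step, held 20.1, 30.7, 85.3 and 28.8 FPKM in the knockdown and 103, 142, 126 and 132 FPKM in the controls (log2 difference -1.80, SE 0.35, adjusted p = 0.0327). Khdc3 held 12.2, 20.9, 208 and 39.5 FPKM and 355, 536, 298 and 358 FPKM in the same groups (log2 difference -3.26, SE 0.65, adjusted p = 0.0346). In Crip2 and Khdc3 knockdown library 3 lay well above the other 3 knockdown libraries. Without that library the adjusted p was 0.00102 for Crip2 and 0.000644 for Khdc3, and without any other library it was between 0.0614 and 0.0879 for Crip2 and between 0.0614 and 0.0991 for Khdc3. Several genes of the epithelial and pluripotency groups did not pass the test: Cdh1 held 7.24, 17.3, 20.3 and 16.5 FPKM in the knockdown and 22.4, 19.6, 22.1 and 21 FPKM in the controls (log2 difference -0.53, SE 0.28, adjusted p = 0.308), Cldn4 17.6, 16.4, 53 and 36.7 FPKM and 137, 83.8, 89.8 and 36.6 FPKM (log2 difference -1.48, SE 0.43, adjusted p = 0.0962), and Pou5f1 20.1, 42.4, 105 and 124 FPKM and 191, 172, 88.8 and 135 FPKM (log2 difference -1.27, SE 0.49, adjusted p = 0.175).

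**Figure D5:**
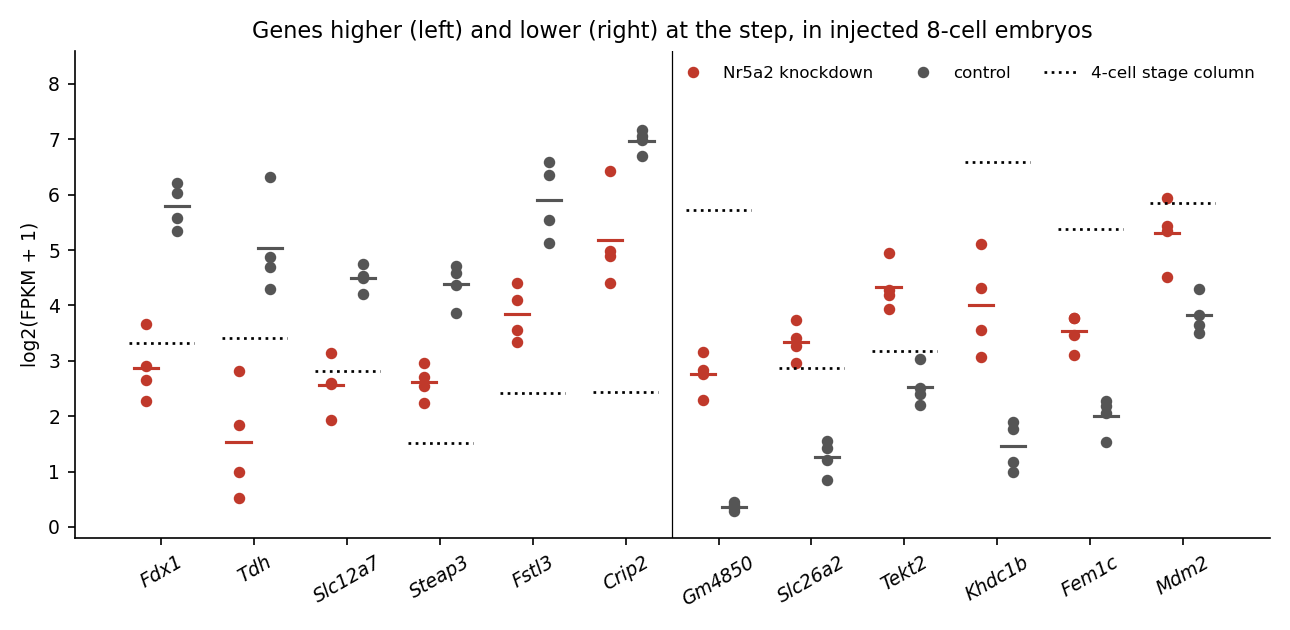
Level, as log2(FPKM + 1), of 6 genes higher (left) and 6 genes lower (right) at the step in each injected 8-cell library, Nr5a2 knockdown in red left of control in grey, with the group means as bars. Dotted lines mark the level in the 4-cell stage column, which lies above every knockdown library for Gm4850, Khdc1b and Fem1c.

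Genes lower at the step and higher in the knockdown included maternal and 2-cell transcripts. Gm4850, an unnamed locus, held 5.82, 6.15, 7.96 and 3.91 FPKM in the knockdown and 0.360, 0.307, 0.273 and 0.219 FPKM in the controls (log2 difference 2.4, SE 0.24, adjusted p = 0.00182), and was highest at the 2-cell stage at 254 FPKM. Khdc1b, at 2112 FPKM in the MII oocyte, held 18.9, 10.8, 7.41 and 33.7 FPKM and 0.997, 2.39, 1.24 and 2.73 FPKM (log2 difference 2.56, SE 0.41, adjusted p = 0.0166) in the same groups. The sulfate transporter Slc26a2 held 9.69, 8.68, 6.78 and 12.3 FPKM and 1.93, 1.68, 0.808 and 1.31 FPKM (log2 difference 2.09, SE 0.26, adjusted p = 0.00658), and the tektin Tekt2 held 30.02, 17.3, 14.2 and 18.3 FPKM and 7.15, 3.59, 4.72 and 4.26 FPKM (log2 difference 1.8, SE 0.28, adjusted p = 0.0143). No control library of these 4 genes reached the lowest knockdown library. They, too, were picked for the smallest p in these libraries, so the gap follows largely from the choice. Gm4850, Slc26a2 and Tekt2 kept their call without any 1 library, but Tekt2 lost it with no limit on low values (adjusted p = 0.0845), and Khdc1b lost it without control library 1 (adjusted p = 0.0611). Fem1c, a substrate receptor of a ubiquitin ligase, held 12.7, 10.02, 7.62 and 12.7 FPKM in the knockdown and 3.17, 3.54, 1.90 and 3.83 FPKM in the controls (log2 difference 1.52, SE 0.26, adjusted p = 0.0176), and lost its call without control library 1 (0.0611) or knockdown library 2 (0.0507). Mdm2 was also among the 17, with 42.5, 39.4, 21.9 and 60.1 FPKM in the knockdown and 13.2, 11.6, 18.7 and 10.3 FPKM in the controls (log2 difference 1.49, SE 0.30, adjusted p = 0.0343), a call kept without knockdown library 3 or control library 3 and lost without any of the other 6 (adjusted p between 0.0626 and 0.101). The 4-cell column held 51.5 FPKM of Gm4850, 95.5 of Khdc1b and 40.4 of Fem1c, above every knockdown library, and 6.33 FPKM of Slc26a2 and 8.02 FPKM of Tekt2, below every one of them.

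Of the genes of the step called in the knockdown, promoter entries were found for 4 of the 7 that were higher and rose, for 9 of the 13 that were higher and fell, for 11 of the 17 that were lower and rose and for the 1 that was lower and fell. AAGGTCA was in 1 of these, that of Tgif1, a transcriptional repressor gene that was higher at the step and rose in the knockdown (log2 difference 1.82, SE 0.38, adjusted p = 0.0395), a call lost without 6 of the 8 libraries (adjusted p between 0.0543 and 0.127).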

How the data were processed

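Polyadenylated RNA of mouse embryos was sequenced by the authors from libraries made with a modified Smart-seq2 method, per the labels' protocols. The tools named per the submitters' processing notes are CASAVA 1.8 and STAR 2.4.0, with build mm9, and for the stage samples but not the injected libraries also Cufflinks 2.2.1. The values are FPKM as the authors deposited them, 1 column per stage and 1 per injected library; how the 2 samples of a stage became 1 column is not given in the sources used here. No counts come with the FPKM, so the depth is unknown. No column of another series was found.

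Differences were taken on log2(FPKM + 1) over genes at 5 FPKM or more in either stage. This scale understates the change of low genes. The injected libraries were tested with limma 3.58.1 (trend, R 4.3.3) on log2(FPKM + 1), Nr5a2 knockdown against control. The test was 2-sided, over genes at 1 FPKM or more in at least 4 of the libraries, with Benjamini-Hochberg adjustment. The fit was also run on simulated data, of which no result is given here. Promoters and chromosomes came from RefSeq (GRCm38.p6), to which 5984 of 6003 genes matched by name. Near-identical copies were found among GENCODE transcript sequences with minimap2 2.31-r1302.

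Genes and lists were chosen with earlier results of these data known. The genes named were drawn from the 15 genes with the greatest positive and the 15 with the greatest negative difference (leaving out loci without a proper name), a fixed set of stage markers, up to 6 genes of each list with the largest differences and members needed as examples, up to 8 genes per direction with the smallest p in the knockdown, and the genes nearest the limits; any other gene was named after its values were seen. Some genes that these rules select are not reported here. Alternatives were scalings, pseudocounts, limits on low values, gene exclusions, the replicate number as a block and leaving out each library.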

Additional observations from a re-analysis of the deposited data

Results flagged for a closer look

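Single injected libraries stood apart from the other 3 of their group in 6 of 85 groups of 4 examined over 44 genes by Dixon's criterion, which sets the gap to the nearest library against the group's range. For normally distributed values chance alone gives about 1 in 20 such groups. That rate may not hold here, because the criterion was applied to FPKM without a log scale and to genes that were not drawn at random. All 6 values that stood apart were above the others of their group. In the Nr5a2 knockdown, library 3 held 85.3 FPKM of Crip2, against 20.1 to 30.7 FPKM in the others, and 208.0 FPKM of Khdc3, against 12.2 to 39.5 FPKM. Knockdown library 1 held 10.9 FPKM of Omt2b, against 3.58 to 4.28 FPKM, and 9.61 FPKM of Mdm4, against 6.47 to 6.74 FPKM. Knockdown library 2 held 18.3 FPKM of Idh1, against 12.7 to 13.7 FPKM. Control library 4 held 78.7 FPKM of Tdh, against 18.8 to 28.2 FPKM in the other controls.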

How the results depend on the processing

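The step gave 414 genes higher and 583 lower. With a pseudocount of 5 these counts were 236 and 243, with a limit of 1 FPKM or no limit 910 genes were lower, and with a limit of 10 FPKM 371 were lower. The other counts stayed within 1.5 times, including 373 higher and 797 lower with total scaling. They also include the counts without X- and Y-linked genes, genes grouped as small RNA or genes at 0, alternatives chosen after seeing the data. Of 176 named genes past the difference of 1, 129 remained past it with a pseudocount of 5 and 154 to 165 under the 3 other scalings, and none changed sign there. Of the list medians above 0.30 in size, 3 changed sign: trophectoderm and Hippo was -0.22 with a limit of 10 FPKM (0.32 as reported), primitive endoderm -0.51 with a limit of 1 FPKM (0.36, over 2 genes) and housekeeping -0.18 without genes with near-identical copies (0.45). Medians nearer to 0 also changed sign in places, under median scaling those of cholesterol synthesis and DNA replication, and under total scaling those of amino acid transporters, DNA methylation, aminoacyl-tRNA synthetases and splicing factors. The gap between X-linked and autosomal medians kept its direction in every alternative run.

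The knockdown counts moved more. Over all tested genes (128 higher, 57 lower), 67 were higher with median scaling, 68 with quantile normalization, 73 higher and 35 lower with a pseudocount of 0.1, 7 higher and 4 lower with no limit on low values (16208 genes tested), and 13 to 177 higher and 8 to 108 lower without 1 library. Among higher genes of the step, 7 rose and 13 fell; 4 rose with median scaling or quantile normalization, 2 with a pseudocount of 0.1, 0 rose and 1 fell with no limit, and 0 to 6 rose and 4 to 24 fell without 1 library. Among lower genes, 17 rose and 1 fell; 9 rose and 2 fell with median scaling, 8 and 2 with quantile normalization, 11 rose with a pseudocount of 0.1, 2 rose and 0 fell with no limit, and 4 to 24 rose and 0 to 3 fell without 1 library. With the replicate block, 37 genes were higher and 18 lower, and 7 higher genes of the step fell and 6 lower genes rose. Deviations of same-numbered libraries correlated at -0.11 to 0.08 and none matched its own number best, so the numbers are not taken to pair the libraries. No paired analysis was possible because, for the step itself, 1 column per stage carries no replicate number. The causes were not tested. With 1 value per stage and unknown depth, no difference between the stages could be tested.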

Other observations

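Families with at least 5 genes at 5 FPKM or more were grouped by name after the values were seen. Of 173 such families, the Fbxw family of F-box proteins with WD repeats had the lowest median difference, -1.60. In it 8 of 9 genes were lower at the 8-cell stage, against 9.71% of all members. One of the 8, Fbxw9, was at the limit, at -1.001, and at -0.899 after median scaling. F-box proteins choose substrates for a ubiquitin ligase, and several of the mouse Fbxw genes are expressed mainly in oocytes. Fbxw14 held 2.84 FPKM at the 8-cell and 16.0 FPKM at the 4-cell stage, and Fbxw28 held 2.35 FPKM and 11.5 FPKM at the same stages. Fbxw14 and Fbxw28 are near-identical copies of each other, so they are not separate examples. Fbxw24 held 14.8 FPKM and 40.6 FPKM, and Fbxw2 held 7.50 FPKM and 24.8 FPKM, again with the 8-cell stage first. Fbxw11, with 10.1 FPKM at the 8-cell and 12.5 FPKM at the 4-cell stage, was the gene not counted as lower. The next lowest median, -1.17, belonged to the Socs family of cytokine signalling inhibitors, with 3 of 6 genes lower.

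Genes with near-identical copies differed between the tables. The mean of the injected controls minus the 8-cell stage column, as log2(FPKM + 1), had a median of -1.30 over 817 such genes and -0.31 over 5118 genes without copies. It was -2 or lower in 30.1% of the genes with copies and in 3.26% of the others. Rps4x, with 633 FPKM in the 8-cell column, held 44.2, 45.1, 44.8 and 40.5 FPKM in the 4 controls.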
